A study of Mus musculus with 20 samples.

Results

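Hsd17b12, Rheb, Chp1, Lims1 and 1700025G04Rik are 5 of the 32285 genes listed for single nuclei of the mouse hippocampus. They were chosen because their transcripts were lower in CA1 pyramidal neurons (CA1-ExNs) of mice under ketamine than in awake mice, so their level in that contrast describes the choice and is given without a test. The 20 mice were 4.5 to 5.5 months old males, wild type (WT) or APP/PS1 (fAD, a model of familial Alzheimer's disease carrying mutant APP and PS1 transgenes, hemizygous by the study's methods), with 1 library of nuclei per mouse. The awake groups held 6 WT and 3 fAD mice, the isoflurane groups 3 WT and 4 fAD mice, and the ketamine groups 2 mice of each genotype, named WT-Awake, fAD-Awake and so on. Isoflurane was reduced from 5% to 1.5%, ketamine was given at 150 mg/kg together with xylazine at 12 mg/kg, and either anesthesia lasted 3 h, so ketamine and xylazine cannot be told apart. Prnp, whose promoter is used for transgenes of this kind, was at 65.8 to 475 CPM (UMI counts scaled to a common library total) in the nuclei clustered as CA1 of the 9 mice labelled fAD and at 42.4 to 188 CPM in the 11 labelled WT, so that this gene did not separate the genotype labels, and genotypes are given as labelled.

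The 5 proteins belong to different pathways. Hsd17b12 is the 3-ketoacyl-CoA reductase of the endoplasmic reticulum, which acts in each round of the elongation of fatty acids to very long chains. Rheb is a small GTPase that turns on the kinase complex mTORC1 at the lysosome and is turned off by the Tsc1 and Tsc2 complex. Chp1, calcineurin B homologous protein, is a calcium-binding partner of the glycerol phosphate acyltransferase Gpat4 and an inhibitor of the phosphatase calcineurin. Lims1 (PINCH1) is an adaptor that joins integrin-linked kinase (Ilk) and parvins at integrin adhesions. In GENCODE vM21 on GRCm38, Hsd17b12 (ENSMUSG00000027195) lies on the minus strand of chromosome 2 from 94032689 to 94157964, and Chp1 (ENSMUSG00000014077) on the plus strand of the same chromosome from 119547697 to 119587027. Rheb (ENSMUSG00000028945) is on the minus strand of chromosome 5 from 24802823 to 24842624 and Lims1 (ENSMUSG00000019920) on the plus strand of chromosome 10 from 58323466 to 58424691. 1700025G04Rik (ENSMUSG00000032666), a protein-coding gene on the minus strand of chromosome 1 from 151852403 to 152090125, is the longest of the 5 at 237.7 kb, against 125.3 kb for Hsd17b12, 101.2 kb for Lims1, 39.8 kb for Rheb and 39.3 kb for Chp1. Introns were counted, so reads can come from anywhere in these spans. Hsd17b12 and Chp1 overlap 0 other annotated genes, Rheb and 1700025G04Rik each hold a small RNA gene on their own strand, Lims1 holds one on the opposite strand, and 1700025G04Rik shares 11645 bases with the antisense gene Gm28610 on the opposite strand.

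Because the 5 genes were low together, the RefSeq windows of 250 bases before their transcription starts (GRCm38.p6, all 5 genes matched) were searched on both strands for CCAAT, for TGACG, the core of the cyclic AMP response element, and for the GC box, the E-box and the TATA box. CCAAT was found 2 times in the Hsd17b12 window, 1 time in that of Chp1 and 1 time in 2 of the 3 Lims1 windows, and is present in 33.9% of 32851 such windows. TGACG was found 1 time each in the windows of Hsd17b12, Chp1 and Rheb, and is present in 17.8% of the windows. TGACG was in none of the Lims1 windows, neither CCAAT nor TGACG occurred in the 1700025G04Rik window, and the palindrome TGACGTCA, which contains TGACG, occurred in none of the windows of the 5 genes, against 1.55% of all windows. The GC box, GGGCGG, was found in at least 1 window of each of the 5 genes, and is present in 32.7% of the windows. This share, like the others here, is per window and not per gene. It covers all windows, not only those of genes detected in these nuclei. It occurred 3 times in the 1700025G04Rik window and in 1 of the 3 Lims1 windows, 2 times in that of Chp1 and 1 time each in those of Hsd17b12 and Rheb. Bases G and C made up 75.6% of the 1700025G04Rik window, 70.8% of that Lims1 window, 67.2% for Chp1 and 49.6% for Hsd17b12. The median over all windows was 52.4%. The E-box, CACGTG, was found 1 time each in the Rheb window and a Lims1 window (6.02% of windows). The TATA box, TATAAA, was found 2 times in the same Lims1 window (12.4%). The parts of the Hsd17b12 and Chp1 windows that lie before the GENCODE gene are shown 5′ to 3′ on the coding strand, with CCAAT and TGACG in capitals in either orientation. The TGACG matches of Hsd17b12 and Rheb fall in bases that GENCODE places inside the gene and are not shown. These matches are descriptions of the letters, and binding was not measured.
Hsd17b12, chr2:94157965-94158159, minus strand: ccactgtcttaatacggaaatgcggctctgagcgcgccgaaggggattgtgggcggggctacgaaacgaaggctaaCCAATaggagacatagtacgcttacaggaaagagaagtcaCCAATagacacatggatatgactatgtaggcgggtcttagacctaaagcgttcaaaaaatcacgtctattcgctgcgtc
Chp1, chr2:119547457-119547696, plus strand: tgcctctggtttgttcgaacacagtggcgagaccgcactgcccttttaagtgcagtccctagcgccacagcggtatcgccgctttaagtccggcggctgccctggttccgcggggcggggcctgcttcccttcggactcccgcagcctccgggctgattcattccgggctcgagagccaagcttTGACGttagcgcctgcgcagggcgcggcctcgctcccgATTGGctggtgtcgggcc

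Nuclei were clustered on these counts and named from marker genes, and a nucleus counted as CA1-like when its cluster was named by a list of 7 CA1 markers that includes Fibcd1, Mpped1 and Wfs1. There were 2 such clusters, of which the smaller drew 87.9% of its nuclei from mice 1 to 4, with mice 1 and 2 awake and mice 3 and 4 under isoflurane. The same 4 mice gave 87.0% of 1 DG cluster, 84.4% of 1 astrocyte cluster and 95.4% of 1 oligodendrocyte cluster. The UMIs (unique RNA molecules) of CA1-like nuclei were summed per mouse and scaled to CPM with TMM normalization. There were 264 to 785 CA1-like nuclei per mouse under ketamine, 377 to 1387 in awake mice and 848 to 1518 under isoflurane, with 755719 to 4907127 UMIs per mouse. Of all nuclei, 6.95% were CA1-like in WT-Ketamine and 6.94% in fAD-Ketamine, against 9.83% to 13.8% in the other groups, and clusters nearest to CA1 that stayed unnamed held 12.1% and 9.32% against 5.15% to 7.35%. The 7 CA1 markers summed to 350 to 420 CPM in the ketamine mice, 456 to 632 CPM in awake mice and 332 to 543 CPM under isoflurane, none of them at 0. In the same sums, the 7 GABA markers were at 6.63 to 19.2 CPM under ketamine and 12.0 to 58.7 CPM awake, the 8 astrocyte markers at 84.9 to 124 and 101 to 384 CPM, the 8 oligodendrocyte markers at 73.0 to 164 and 129 to 471 CPM, the 8 microglia markers at 115 to 149 and 53.3 to 141 CPM, and the 6 fibroblast markers at 73.8 to 143 and 25.5 to 122 CPM. Of the lists for other excitatory neurons, the 9 subicular and cortical markers summed to 557 to 816 CPM under ketamine and 450 to 900 CPM awake. Under ketamine that range lay above the range of the 7 CA1 markers. The 9 DG markers were at 325 to 378 and 220 to 371 CPM, the 7 CA3 markers at 294 to 367 and 301 to 416 CPM and the 6 CA2 markers at 28.5 to 50.4 and 26.6 to 42.3 CPM. The 7 mossy cell markers were at 297 to 358 CPM under ketamine, with 4 of them at 0 in all ketamine mice, against 355 to 505 CPM awake, with 1 at 0 in all awake mice, and 246 to 284 CPM under isoflurane. The lists for OPC, Cajal-Retzius, endothelial, mural and ependymal and choroid cells overlapped between ketamine and awake mice. Another 13 genes, which lead unnamed clusters (Vim, Fos and Prg4 among them), summed to 302 to 752 CPM in the ketamine mice, 358 CPM in awake mouse 29, 466 CPM in isoflurane mouse 11 and 11.5 to 214 CPM in the other mice. The part of these nuclei in the results was not tested. The ketamine mice carry the numbers 25 to 28 and share their run of mouse numbers with 1 awake mouse only, mouse 29. Differences between ketamine and awake mice therefore include any difference between runs, and mouse 29 is given beside them.

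Hsd17b12 had the largest difference of the 5 genes. It was at 5.41 and 5.30 CPM in the WT-Ketamine mice and at 8.15 and 4.92 CPM in the fAD-Ketamine mice, from 4 to 12 UMIs per mouse. In WT-Awake mice it ran from 21.2 to 34.3 CPM (median 26.4, n = 6), and in the fAD-Awake mice it was at 38.5, 37.6 and 24.2 CPM. The WT-Isoflurane mice had 16.8, 24.5 and 26.4 CPM, and the fAD-Isoflurane mice 23.2, 30.0, 26.7 and 20.2 CPM. All 4 ketamine mice thus lay below the lowest of the 16 others, and mouse 29, at 21.2 CPM, was the lowest awake mouse. The fitted log2 difference between ketamine and awake was -2.36 (standard error 0.25), a level 5.13-fold lower, with -2.34 in WT and -2.38 in fAD. Against mouse 29 alone it was -1.84, and with runs of mouse numbers as a term in the fit it was -1.96. When each nucleus was gated by itself in place of the clusters, the log2 difference was -3.28.

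Rheb, the activator of mTORC1, was at 35.2 and 39.8 CPM in WT-Ketamine and at 36.0 and 41.8 CPM in fAD-Ketamine. It ran from 64.6 to 91.8 CPM (median 70.7) in WT-Awake and was at 82.0, 83.7 and 79.4 CPM in fAD-Awake. Under isoflurane it was at 67.8, 72.3 and 68.6 CPM in WT and at 51.8, 56.5, 69.3 and 47.9 CPM in fAD. The ketamine values lay within a narrow band below all others. Their log2 difference from awake was -1.02 (standard error 0.13), or 2.02-fold lower. Mouse 29, at 64.6 CPM, was again the lowest awake mouse, and against it the log2 difference was -0.76.

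Chp1, the calcium-binding protein, was at 20.7 and 31.8 CPM in WT-Ketamine and at 17.7 and 23.6 CPM in fAD-Ketamine. WT-Awake mice had 43.3 to 63.3 CPM (median 50.3) and the fAD-Awake mice 56.6, 56.2 and 56.6 CPM. With isoflurane, WT mice were at 45.1, 44.6 and 39.1 CPM and fAD mice at 51.5, 55.8, 46.0 and 40.4 CPM. The highest ketamine mouse stayed below the lowest of the other 16 mice. The log2 difference from awake was -1.22 (standard error 0.16), with -1.004 in WT and -1.44 in fAD, and -0.99 against mouse 29 (46.6 CPM).

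Lims1, the adaptor of Ilk, had the smallest difference of the 5 genes. It was at 55.9 and 63.6 CPM in WT-Ketamine, at 58.4 and 50.2 CPM in fAD-Ketamine and at 90.9 to 107 CPM in the 9 awake mice. The WT-Isoflurane mice had 77.2, 89.6 and 90.2 CPM and the fAD-Isoflurane mice 92.0 to 95.5 CPM. Ketamine mice were 1.69-fold lower than awake mice (log2 difference -0.76, standard error 0.099) and did not overlap with any other mouse. Mouse 29, at 92.3 CPM, lay among the other awake mice, and the log2 difference from it was -0.69.

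1700025G04Rik was at 39.7 and 46.4 CPM in WT-Ketamine and at 50.3 and 36.4 CPM in fAD-Ketamine, against 83.9 to 105 CPM in the awake mice. Isoflurane mice had 62.4, 62.3 and 89.9 CPM in WT and 73.0, 86.1, 79.1 and 69.5 CPM in fAD, of which 5 of 7 lay below the lowest awake mouse and the other 2 within the awake range. The log2 difference of ketamine from awake was -1.17 (standard error 0.14), or 2.25-fold lower, and against mouse 29 (101 CPM) it was -1.22.

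**Figure D1:**
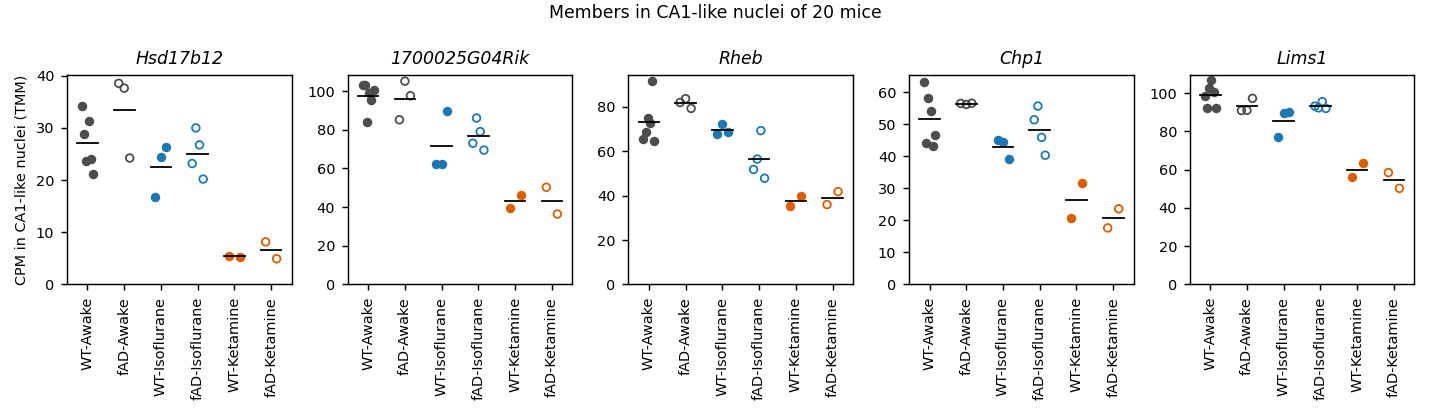
CPM of the 5 genes in CA1-like nuclei (y axis, from 0) in each of the 20 mice, by group (x axis), filled circles for WT, open circles for fAD and a line at the group mean. The 4 ketamine mice lie below all 16 other mice in every panel, with Hsd17b12 at 4.92 to 8.15 CPM against 16.8 to 38.5 CPM elsewhere.

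As a background to these values, 704 of 13974 genes tested (5.04%) were called lower in CA1-like nuclei under ketamine than in awake mice (edgeR's quasi-likelihood test, adjusted p under 0.05) and 586 higher. All 5 genes are among those called lower, which their choice fixed. A pattern in which every ketamine mouse lies below every other mouse was found for 167 genes (1.2%), the 5 included. With runs of mouse numbers as a term, only 34 genes were called lower and 0 higher, a contrast that then rests on mouse 29. Fewer genes were called lower without WT-Ketamine mouse 27, a fit that leaves 1 mouse in that group, and the reason was not tested. The median log2 difference of the 5 genes, -1.17, was -1.03 with the run term and between -1.23 and -1.08 when any 1 mouse was left out.

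Ketamine was also compared with isoflurane, for which the same 4 ketamine mice make the lower side, so these values are again a description. The log2 difference was -2.01 for Hsd17b12, -0.97 for Chp1, -0.79 for 1700025G04Rik, -0.71 for Rheb and -0.65 for Lims1.

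Isoflurane against awake was not used in the choice, although it shares the awake mice with it. The 5 genes had log2 differences below 0, and 1 of the 5 was called, where 244 of 13974 genes (1.75%) were called lower in all. 1700025G04Rik was lower under isoflurane with a log2 difference of -0.38 (standard error 0.11, edgeR adjusted p = 0.0421), and 5 of 7 isoflurane mice lay below the lowest awake mouse. This call was lost without mice 1 to 4 (adjusted p = 0.183), without mice 10 to 12 (0.135) and in 12 of 20 fits without 1 mouse. In the 8 mice numbered 1 to 4 and 17 to 20, with each set of 4 as a term, the log2 difference was -0.37 (edgeR adjusted p = 0.176) and none of the 5 genes was called. Rheb was not called, at -0.30 (standard error 0.10, edgeR adjusted p = 0.0939), and passed with runs of mouse numbers as a term, at -0.33 (adjusted p = 0.0441). Hsd17b12 had -0.35 (standard error 0.16, edgeR adjusted p = 0.236), Chp1 -0.25 (standard error 0.12, adjusted p = 0.288) and Lims1 -0.10 (standard error 0.078, adjusted p = 0.566). For each of Rheb, Chp1, Lims1 and 1700025G04Rik all 7 isoflurane mice were below the awake median, and for Hsd17b12 6 of 7 were, where 6.96% of all genes tested had all 7 below it, and the awake values entered the choice of the 5 genes.

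No difference between genotypes was detected for the 5 genes, including in a fit without mice 11, 14 and 17. Between mice labelled fAD and WT, over all treatments, 0 of 13974 genes (0%) were called by edgeR's quasi-likelihood test, while 303 had an unadjusted p below 0.05. DESeq2 called 0 of the 5 genes. The log2 differences were 0.23 for Hsd17b12 (standard error 0.19), 0.03 for 1700025G04Rik (0.10), -0.03 for Rheb (0.099), -0.0068 for Chp1 (0.12) and -0.03 for Lims1 (0.075), with unadjusted p of 0.27 to 0.954 in that fit across all genes. Within isoflurane, Rheb had a log2 difference of -0.30 between fAD and WT (standard error 0.15), and the interaction of genotype with isoflurane was -0.47 (standard error 0.20), with an edgeR adjusted p of 0.931. 0 interactions of genotype with treatment were called for the 5 genes in any class, as for all genes tested. Of 96 such tests of the 5 genes 4 had an unadjusted p under 0.05 in the edgeR fit, against 1.72% to 3.98% of all genes by class and treatment, namely Rheb in CA1-like (-0.47) and DG-like nuclei (-0.39), Chp1 in DG-like nuclei (-0.51) and Hsd17b12 in subicular and cortical-like nuclei (-0.86), all with isoflurane. Hsd17b12 and 1700025G04Rik were not tested in fibroblast-like nuclei.

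In awake mice the levels of the 5 genes were compared across 10 cell classes. Hsd17b12 was at 108 ± 52.1 CPM (SD, n = 9) in OPC-like nuclei and 92.8 ± 27.6 CPM in astrocyte-like nuclei, against 29.3 ± 6.48 CPM in CA1-like, 29.0 ± 10.9 CPM in CA3-like and 22.6 ± 4.21 CPM in DG-like nuclei. GABA-like nuclei (70.8 ± 15.3 CPM) and subicular and cortical-like nuclei (60.4 ± 16.0 CPM) lay between, and every neighbouring pair in the order overlapped. Lims1 was highest in microglia-like nuclei, at 478 ± 134 CPM (SD, n = 8), then fibroblast-like nuclei at 357 ± 108 CPM, and fell over OPC-like (263 ± 50.6), astrocyte-like (195 ± 19.7) and oligodendrocyte-like nuclei (159 ± 17.6 CPM) to 56.3 ± 4.15 CPM in DG-like nuclei, the only separated neighbours being CA1-like (96.9 ± 5.69) and CA3-like nuclei (75.4 ± 9.88 CPM). 1700025G04Rik stood out in OPC-like nuclei, at 312 ± 52.4 CPM, without overlap with DG-like nuclei, the next at 175 ± 20.2 CPM, and was lowest in astrocyte-like (43.1 ± 8.85) and fibroblast-like nuclei (29.7 ± 8.89 CPM). Rheb ran from 133 ± 41.4 CPM in fibroblast-like to 48.9 ± 6.95 CPM in CA3-like nuclei, and Chp1 from 81.1 ± 13.5 CPM in oligodendrocyte-like to 48.8 ± 8.14 CPM in CA3-like nuclei, with overlap between all neighbours. The CPM of a class are shares of its own RNA, so an order between classes is not an order of molecules per nucleus.

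Nuclei of the other classes were not used in the choice, although they come from the same mice and libraries. Of 43 tests of the 5 genes in the 9 other classes, 9 were called lower under ketamine than in awake mice and 0 higher, and all 9 were in neurons. In DG-like nuclei 3 of 5 genes were called lower (background 6.04% of the genes tested in that class), as were 3 of 5 in subicular and cortical-like nuclei (2.21%), 2 of 5 in GABA-like nuclei (2.53%) and 1 of 5 in CA3-like nuclei (2.02%). In astrocyte-like nuclei 0 of 5 were called (background 2.83%), and likewise 0 of 5 in oligodendrocyte-like (1.33%), OPC-like (0.365%) and microglia-like nuclei (0%), and 0 of the 3 genes tested in fibroblast-like nuclei (0.171%). Some of these counts were small, with Rheb at 1 to 33 UMIs per mouse in OPC-like and Hsd17b12 at 0 to 26 in microglia-like nuclei. Hsd17b12 had 26 to 165 UMIs per mouse in astrocyte-like nuclei. A missing call therefore does not show that a gene was unchanged. In the glial and fibroblast classes together, 2 tests had an unadjusted p under 0.05 toward lower and 2 toward higher. The 9 calls fell to 4 without mouse 25 or mouse 27, to 6 without mice 1 to 4, to 5 without mice 10 to 12 and to 0 with runs of mouse numbers as a term, where mouse 29 carries the awake side.

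Hsd17b12 was lower in all 4 other neuronal classes. In GABA-like nuclei the ketamine mice had 15.0 to 27.3 CPM, mouse 29 had 54.2 CPM and the awake mice ran from 51.8 to 99.1 CPM, a log2 difference of -1.98 (standard error 0.22, edgeR adjusted p = 0.000238). In subicular and cortical-like nuclei they had 11.7 to 19.3 CPM against 39.4 to 84.3 CPM awake and 48.4 CPM in mouse 29 (-1.97, standard error 0.24, adjusted p = 0.000157). In DG-like nuclei the values were 7.70 to 9.25 CPM against 17.0 to 31.5 CPM awake, with mouse 29 the lowest awake mouse at 17.0 CPM (-1.50, standard error 0.20, adjusted p = 0.000351). In these 3 classes every ketamine mouse was below every awake mouse, a pattern shown by 2.45%, 1.67% and 3.08% of the genes tested in GABA-like, subicular and cortical-like and DG-like nuclei. CA3-like nuclei differed, since mouse 29 was at 8.19 CPM from 5 UMIs, within the ketamine range of 6.09 to 16.5 CPM. There the log2 difference of -1.47 (standard error 0.38, adjusted p = 0.0354) turned to 0.34 with the run term, and the call was lost in 8 of 20 fits without 1 mouse (adjusted p = 0.0513 to 0.2). In the other 3 classes the call held whichever mouse was left out, and the difference kept its sign with that term, at -1.66, -1.81 and -1.13, without a call (edgeR adjusted p = 0.226, 0.182 and 0.364). In astrocyte-like nuclei Hsd17b12 was at 72.9 to 95.5 CPM under ketamine and at 60.9 to 130 CPM awake, with a log2 difference of -0.05 (standard error 0.24, edgeR adjusted p = 0.908), and in OPC-like nuclei it was at 63.2 to 114 CPM against 61.4 to 225 CPM. Oligodendrocyte-like nuclei had 31.2 to 46.4 CPM under ketamine against 34.3 to 76.5 CPM awake, with mouse 29 the lowest awake mouse (-0.48, standard error 0.22, unadjusted p = 0.0442 and adjusted p = 0.218 in the edgeR fit).

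**Figure D2:**
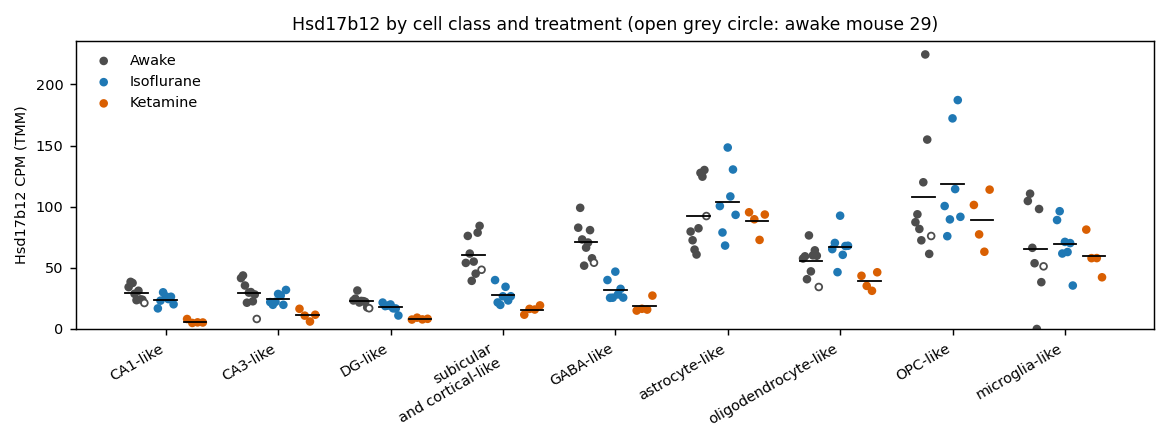
Hsd17b12 CPM (y axis, from 0) in each mouse for 9 cell classes (x axis), coloured by treatment, with a line at the mean of each treatment and awake mouse 29 as an open circle. Ketamine mice lie below all awake mice in CA1-like, DG-like, subicular and cortical-like and GABA-like nuclei, and overlap with them in CA3-like, astrocyte-like, oligodendrocyte-like, OPC-like and microglia-like nuclei.

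Hsd17b12 was also lower under isoflurane in 2 of these classes. In GABA-like nuclei the 7 isoflurane mice had 25.5 to 46.9 CPM, all below the 9 awake mice, as for 0.508% of the genes tested (log2 difference -1.20, standard error 0.16, edgeR adjusted p = 0.000457, where 1.39% of genes were called lower). In subicular and cortical-like nuclei they had 19.7 to 40.0 CPM, which touches the awake range (-1.15, standard error 0.18, adjusted p = 0.000793, background 2.85%). Both calls held with the run term, at -1.25 in either class (adjusted p = 1.16e-05 and 0.000292), and whichever mouse was left out. In CA1-like, CA3-like and DG-like nuclei the isoflurane difference of Hsd17b12 was -0.35, -0.31 and -0.39, and none of these was called.

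Chp1 was called lower under ketamine in DG-like (-0.54, standard error 0.14, edgeR adjusted p = 0.0155), subicular and cortical-like (-0.84, standard error 0.22, adjusted p = 0.0348) and GABA-like nuclei (-0.56, standard error 0.15, adjusted p = 0.0396). Mouse 29 lay close to the ketamine mice in all 3. In DG-like nuclei it had 41.5 CPM against 33.4 to 41.9 CPM under ketamine, in subicular and cortical-like nuclei 46.3 against 31.8 to 56.1 CPM and in GABA-like nuclei 49.6 against 32.4 to 51.0 CPM. With the run term the log2 differences were -0.21, -0.099 and -0.25 (edgeR adjusted p = 0.867, 0.994 and 0.937). Leaving out 1 mouse ended the call in 3, 6 and 10 of 20 fits, with edgeR adjusted p of up to 0.124, 0.221 and 0.222, each without mouse 27. In fibroblast-like nuclei Chp1 lay the other way, at 117 to 176 CPM under ketamine and 0 to 113 CPM awake, with mouse 29 at 35.4 CPM and without a call (1.13, standard error 0.43, unadjusted p = 0.0143 and adjusted p = 0.215 in the edgeR fit). Every ketamine mouse was above every awake mouse for 1.73% of the genes tested there. Rheb was called lower in subicular and cortical-like nuclei only (-0.81, standard error 0.23, adjusted p = 0.0456), with mouse 29 at 46.3 CPM among ketamine mice of 41.5 to 64.1 CPM, and the difference was 0.29 with the run term. This call was lost in 11 of 20 fits without 1 mouse (edgeR adjusted p = 0.0527 to 0.25). In DG-like nuclei Rheb was at 53.9 to 62.7 CPM under ketamine and 50.9 to 71.1 CPM awake.

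1700025G04Rik was called lower in DG-like nuclei under both anesthetics. There the ketamine mice had 77.8 to 120 CPM, the isoflurane mice 99.5 to 156 CPM and the awake mice 139 to 203 CPM, with mouse 29 at 183 CPM. The log2 difference was -0.84 for ketamine (standard error 0.14, edgeR adjusted p = 0.00196), or -0.92 without a call with the run term (adjusted p = 0.267), and -0.49 for isoflurane (standard error 0.11, adjusted p = 0.0261, background 1.15%). The isoflurane call was lost with each nucleus gated by itself (edgeR adjusted p = 0.0522), without mice 1 to 4 (0.202), without mice 10 to 12 (0.0579) and in 5 of 20 fits without 1 mouse. In CA3-like nuclei each ketamine mouse lay below each awake mouse, at 64.0 to 78.6 CPM against 81.2 to 133 CPM (2.27% of the genes tested there), with an edgeR adjusted p of 0.0547. In oligodendrocyte-like nuclei the ketamine mice had 78.1 to 87.8 CPM, each below the awake mice at 89.1 to 136 CPM (1.3% of the genes), without a call (-0.41, edgeR adjusted p = 0.206). In OPC-like nuclei, where the gene was highest, the values were 316 to 389 CPM under ketamine and 217 to 390 CPM awake. Lims1 was called in none of the other classes, with log2 differences of -0.11 in CA3-like, 0.11 in DG-like, -0.47 in subicular and cortical-like and 0.02 in GABA-like nuclei, and 0.73 in microglia-like nuclei (standard error 0.22, edgeR adjusted p = 0.202).

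**Figure D3:**
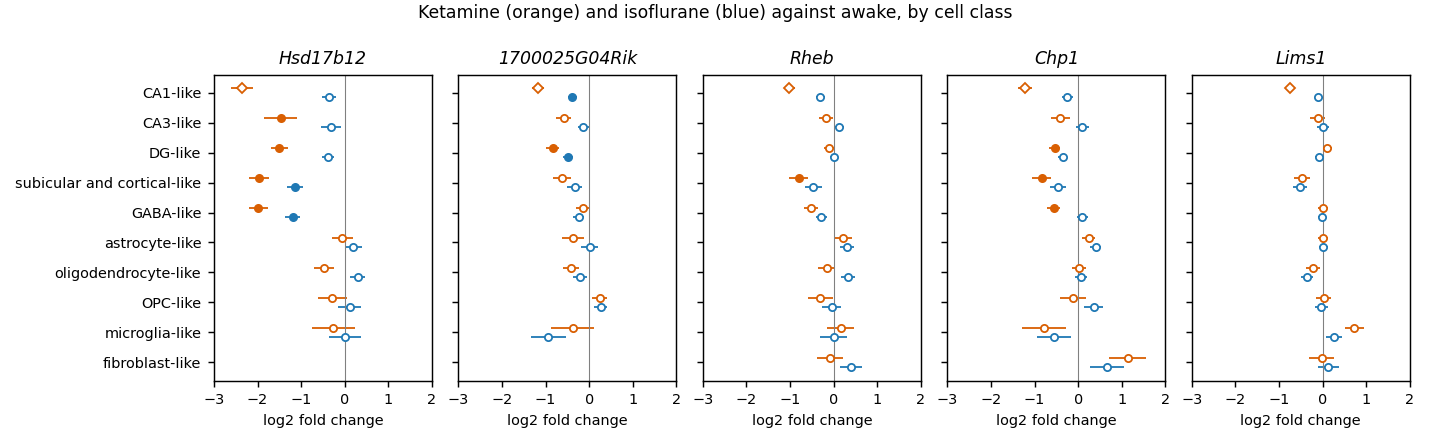
Log2 fold change against awake (x axis, with standard error) of each gene in 10 cell classes (y axis), for ketamine (orange) and isoflurane (blue). Filled symbols passed edgeR's adjusted p of 0.05, and open diamonds mark the CA1-like ketamine values that chose the genes and carry no test. Calls under ketamine lie in neuronal classes only among those tested, and a missing call does not show that a gene was unchanged.

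To compare neurons with glia within a mouse, the mean log2(CPM + 1) over astrocyte-like, oligodendrocyte-like and OPC-like nuclei was subtracted from that over CA3-like, DG-like, subicular and cortical-like and GABA-like nuclei, a comparison set up after the values by class had been seen. For Hsd17b12 this value was -2.52 to -2.20 in the ketamine mice and -1.61 to -0.33 in the awake mice, without overlap (difference -1.34, exact permutation test, two-sided, p = 0.0014, the smallest that 4 against 9 mice can give, adjusted p = 0.0463 over all 6419 genes compared). Mouse 29 was at -1.29, above all 4 ketamine mice. For Chp1 the difference was -0.64 (exact permutation test, p = 0.0042, adjusted p = 0.0804), and for 1700025G04Rik -0.35 (exact permutation test, p = 0.0182, adjusted p = 0.144), so that 3 of 5 genes were lower at an unadjusted p under 0.05, where 10.9% of all genes were. Mouse 29 was above all ketamine mice for 1700025G04Rik and within their range for Chp1. The unadjusted p of 1700025G04Rik was not under 0.05 with each nucleus gated by itself (-0.28, exact permutation test, p = 0.0587), without mice 10 to 12 (-0.31, p = 0.0515), without mouse 25 (-0.35, p = 0.05) or without mouse 27 (-0.26, p = 0.0773). For Rheb the difference was -0.36 (exact permutation test, p = 0.0587), with an unadjusted p under 0.05 when run with doublets kept (p = 0.035), without mouse 27 (p = 0.0364) or without mouse 29 (p = 0.0222), and for Lims1 it was -0.04 (exact permutation test, p = 0.593). Under isoflurane the differences were -0.89 for Hsd17b12, -0.42 for Chp1, -0.38 for Rheb and -0.31 for 1700025G04Rik (exact permutation tests of 7 against 9 mice, p = 0.000524, 0.0014, 0.012 and 0.00577, adjusted p = 0.0196, 0.0339, 0.105 and 0.0711 over all genes), and -0.03 for Lims1 (exact permutation test, p = 0.767), and 11.7% of all genes were lower at an unadjusted p under 0.05. Without mice 1 to 4 Rheb had -0.27 under isoflurane (exact permutation test, p = 0.122). Both treatments were set against the same awake mice.

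**Figure D4:**
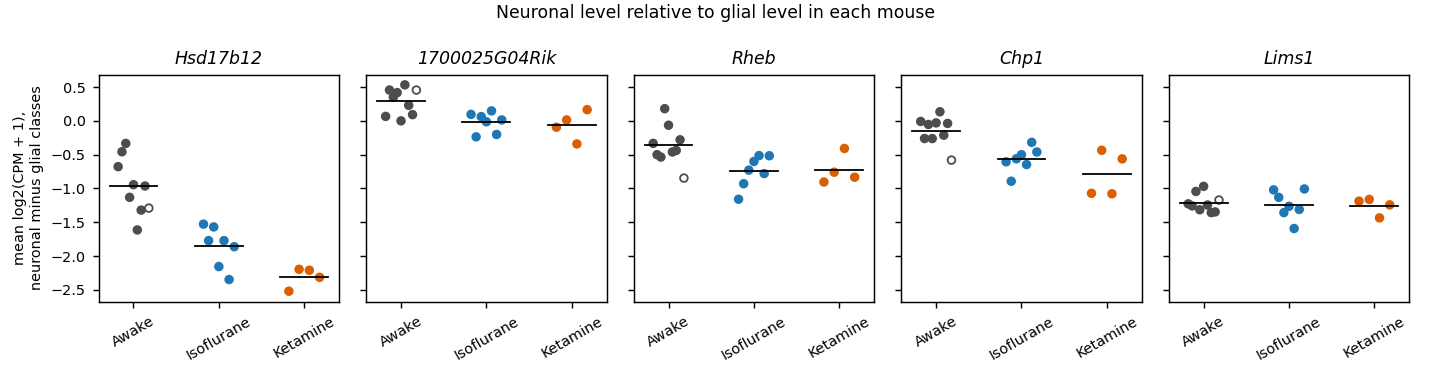
Mean log2(CPM + 1) of 4 neuronal classes minus that of 3 glial classes (y axis) in each mouse, by treatment (x axis), for the 5 genes, with a line at the mean and awake mouse 29 as an open circle. For Hsd17b12 the ketamine mice, at -2.52 to -2.20, lie below all awake mice, and for Lims1 the 3 treatments overlap.

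The genes whose CA1-like level followed the 5 most closely over the 20 mice were also low under ketamine. For Hsd17b12 they were Etv5 (Pearson r = 0.945), Pde4b (0.924) and Rhobtb1 (0.914). For 1700025G04Rik they were Pde4b (0.936), Etv5 (0.926) and Osbpl8 (0.903), for Lims1 Etv5 (0.92), Spry2 (0.919) and Dbpht2 (0.915). Rheb was most like Spry2 (0.905), Abcf2 (0.898) and Emc2 (0.895), and Chp1 most like Etv1 (0.933), Kctd21 (0.917) and Sdhaf3 (0.914). The ketamine mice lie below all others for each of these genes except Osbpl8 and Abcf2, whose ranges overlap, and the points share library and depth, so the values describe that separation. Over the other 16 mice the same pairs had r of 0.354 (Lims1 with Dbpht2) to 0.756 (Hsd17b12 with Etv5). Etv5, an ETS transcription factor, was at 2.70 to 6.12 CPM under ketamine and 8.42 to 73.2 CPM in the other mice, and Pde4b, a cyclic AMP phosphodiesterase, at 79.3 to 107 and 147 to 350 CPM. Among the 5 genes themselves r was 0.806 to 0.923 over 20 mice and 0.201 (Rheb with Chp1) to 0.585 (Hsd17b12 with 1700025G04Rik) over the 16.

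The other genes of the pathways were read in CA1-like nuclei, where 9.23% of all genes tested were called in either direction under ketamine and the median log2 difference was -0.04. In fatty acid elongation 22 of 25 genes were tested, of which 3 were called lower and 2 higher (22.7%), with a median of -0.09. Elovl6, an elongase of saturated chains, was at 37.4 to 55.7 CPM under ketamine and 75.3 to 117 CPM awake, with mouse 29 at 80.1 CPM (log2 difference -1.06, standard error 0.18, edgeR adjusted p = 0.00193). Elovl6 was also called lower under isoflurane in these nuclei (-0.52, edgeR adjusted p = 0.0381), a call not refitted without single mice. Under ketamine Elovl2, an elongase of polyunsaturated chains, was higher instead, at 15.9 to 30.6 CPM against 4.67 to 10.8 CPM, with mouse 29 at 8.99 CPM (1.36, standard error 0.22, adjusted p = 0.00144), as was the dehydratase gene Hacd4, at 104 to 144 CPM against an overlapping 33.2 to 111 CPM awake, with mouse 29 at 76.8 CPM (1.10, standard error 0.27, adjusted p = 0.0158). Acsl5, an acyl-CoA synthetase, was lower, at 4.76 to 13.3 CPM against an overlapping 12.3 to 23.0 CPM, with mouse 29 at 15.5 CPM (-0.90, standard error 0.22, adjusted p = 0.0141). Over 9 alternatives the Acsl5 difference ran from -0.997 to -0.24, and the call was lost in 4. The Hacd4 and Acsl5 calls were each lost without mouse 25 or mouse 27 (edgeR adjusted p = 0.077 to 0.13 and 0.0906 to 0.103). Fasn, the fatty acid synthase, was also called lower, from 0 UMIs in both WT-Ketamine mice, but the fAD-Ketamine mice had 8.83 and 2.95 CPM against 2.45 to 6.07 CPM awake (2.45 CPM in mouse 29), so no fold is given. The Fasn call was lost without mouse 26, 27 or 28 (edgeR adjusted p of up to 0.197). Other enzymes of the cycle were not called, among them Elovl4 at -0.61, the reductase Tecr at -0.52, Hacd3 at 0.21 and Hacd2 at -0.09 (edgeR adjusted p = 0.141, 0.218, 0.255 and 0.696), of which Tecr turned to 0.13 with the run term and Hacd2 to 0.0100 without mice 1 to 4.

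Of the mTORC1 list 45 of 49 genes were tested, and 3 were called lower and 1 higher (8.89%), with a median of -0.09. Sesn3, of the sestrin family that restrains mTORC1, was at 33.1 to 45.1 CPM under ketamine, 13.4 to 23.1 CPM awake and 14.7 CPM in mouse 29 (log2 difference 1.16, standard error 0.19, edgeR adjusted p = 0.00153). Mapkap1, a subunit of mTORC2, was called lower, at 82.0 to 102 CPM against an overlapping 98.0 to 136 CPM awake, with mouse 29 at 126 CPM (-0.40, standard error 0.12, adjusted p = 0.0361). Castor2, a homolog of the arginine sensor Castor1, was called lower at 19.7 to 31.8 CPM against 29.4 to 46.2 CPM awake, with mouse 29 the lowest awake mouse and inside the ketamine range (-0.55, standard error 0.15, adjusted p = 0.0293). The Mapkap1 call was lost in 5 of 9 alternatives and 5 of 20 fits without 1 mouse, and that of Castor2 in 7 of 9 and 4 of 20 (edgeR adjusted p without mouse 27 = 0.21 and 0.171). Akt1s1, an inhibitor of mTORC1, was called at 0 and 1.33 CPM in WT-Ketamine, with 8.15 and 4.43 CPM in fAD-Ketamine inside the awake range of 2.45 (mouse 29) to 10.9 CPM, and this call was lost in 4 of 20 fits without 1 mouse (edgeR adjusted p of up to 0.237). The kinase Mtor had a log2 difference of 0.12, its partner Rptor 0.15, the Rheb inhibitors Tsc1 and Tsc2 0.30 and 0.29, Eif4ebp2 -0.64 and Eef2k -0.49, none of them called (edgeR adjusted p = 0.56, 0.501, 0.106, 0.335, 0.127 and 0.07). With the run term Eif4ebp2 turned to 0.047.

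Of the Chp1 partners and calcineurin subunits 15 of 21 genes were tested and 0 were called, with a median of -0.09. Gpat4 had a log2 difference of -0.28, the calcineurin catalytic subunit Ppp3ca 0.04 and its regulatory subunit Ppp3r1 0.26 (edgeR adjusted p = 0.424, 0.914 and 0.286), and the sign of Ppp3ca changed with library-size scaling. With the run term Gpat4 was at -0.018 and Ppp3r1 at 0.62, neither of them called. In the integrin-linked list 25 of 28 genes were tested, and 2 were called lower and 0 higher (8%), with a median of 0.0052. Itgav, the integrin alpha V subunit, was at 5.30 to 11.7 CPM under ketamine, 24.5 CPM in mouse 29 and 14.9 to 25.2 CPM in all awake mice (-1.31, standard error 0.23, adjusted p = 0.0021). Over 9 alternatives the Itgav difference ran from -1.59 to -0.57, and the call was lost in 3. Rsu1, which binds Lims1, was at 30.6 to 47.3 CPM against 51.5 to 73.6 CPM, with mouse 29 the lowest awake mouse (-0.60, standard error 0.16, adjusted p = 0.0248), a call lost without mouse 25, 27 or 28 (edgeR adjusted p = 0.0694 to 0.137). Ilk had -0.20, Parva -0.07, Lims2 -0.69 and Itgb1 0.0052 (edgeR adjusted p = 0.774, 0.915, 0.283 and 0.987), and Itgb1 changed sign with library-size scaling. Without WT-Ketamine mouse 28 or 27, Lims2 was -1.51 or -0.26 and Ilk -0.07 or -0.41. With runs of mouse numbers as a term, 0 of the 11 calls on these lists remained, though the log2 differences of Itgav (-1.59), Sesn3 (1.47), Elovl2 (1.05), Elovl6 (-0.95), Acsl5 (-0.90), Hacd4 (0.83), Mapkap1 (-0.48), Rsu1 (-0.36) and Castor2 (-0.090) kept their signs. With each nucleus gated by itself 1 gene was called.

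**Figure D5:**
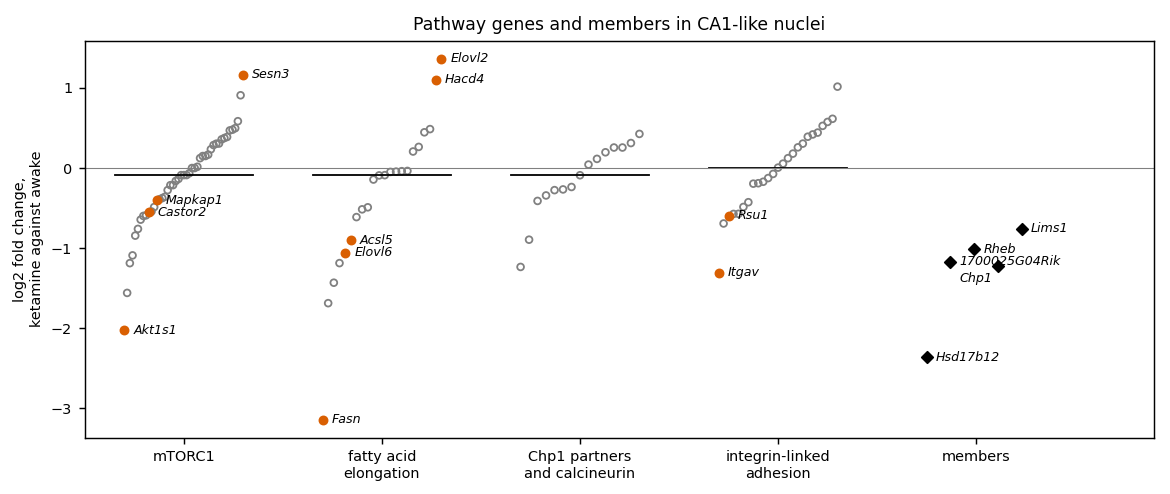
Log2 fold change of ketamine against awake in CA1-like nuclei (y axis) for each tested gene of the 4 pathway lists (x axis), with a line at the list's median and called genes filled and named. Diamonds show the 5 genes whose values in this contrast chose them, from -2.36 to -0.76, beside list medians between -0.09 and 0.0052. Fasn was at 0 in both WT-Ketamine libraries and Akt1s1 in 1 of them, and their fitted positions depend on the prior count.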

How the data were processed

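Nuclei of the hippocampus of 20 mice were sequenced with a 10x Genomics 3′ kit, 1 library per mouse. The authors deposited counts of unique molecular identifiers (UMIs) per gene and nucleus, made with Cell Ranger 5.0.0 on mm10 with introns included, per the labels and the study's methods. The methods also name DoubletFinder and CellBender, and whether the deposited counts passed through either is not given in the sources used here. Free RNA was not corrected here. The 160777 nuclei had at least 229 genes each, and libraries shared a median of 0.2555% of their barcodes.

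From these counts, all nuclei were clustered on 2000 variable genes and 30 principal components (leidenalg 0.10.2, resolution 1), and 6.74% were marked as doublets from simulated pairs. Marked nuclei were left out of the sums per class, as were whole clusters with over 40% of their nuclei marked. Clusters were named from fixed marker lists, with at least 75% of a list detected, a limit chosen after the clusters had been seen. UMIs were summed per mouse and class (at least 20 nuclei) and tested with edgeR 4.0.16 (R 4.3.3), TMM normalization and the quasi-likelihood test over all genes that passed edgeR's filter on low counts. The fit held all 6 groups, and p-values were adjusted by Benjamini-Hochberg with a threshold of 0.05. CPM are TMM-scaled. The edgeR p-values set a difference against the spread between mice of a group. Without the run term they do not separate ketamine from the run that its mice share.

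Genotype and treatment came from the labels, which differ in group sizes from the series' design text. The methods describe sets of mice handled together, which the labels do not name, so runs of mouse numbers stood in for them. The run term took mice 1 to 4, 10 to 13, 14 to 17, 18 to 20 and 25 to 29 as runs. Numbers 10 to 20 are unbroken, so the cuts between them were a choice. The members and lists were chosen with earlier results of these data known. The text names the 5 genes, fixed pathway genes (1 of them is not reported here), any list gene called in CA1-like nuclei, and the 3 genes most like each member over 20 mice by log2 CPM with a prior count of 2. Alternatives were DESeq2 1.42.0, no filter, library-size scaling, a gate on single nuclei, doublets kept, runs of mouse numbers, and leaving out mice. Only the CA1-like ketamine fit was tried on simulated counts, with the same spread for every gene and no difference between runs of mouse numbers. It therefore cannot show how runs affect the values.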

Additional observations from a re-analysis of the deposited data

Results flagged for a closer look

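In 8 of 96 groups of at least 4 mice, 1 mouse lay far from the others, where chance gives about 1 in 20 groups. Hsd17b12 was at 84.3 CPM in subicular and cortical-like nuclei of WT-Awake mouse 19 (others 39.4 to 55.1) and at 225 CPM in OPC-like nuclei of WT-Awake mouse 14 (61.4 to 120). In fAD-Isoflurane it was at 46.9 CPM in GABA-like nuclei of mouse 15 (25.5 to 25.7), at 172 CPM in OPC-like nuclei of the same mouse (75.9 to 91.7) and at 11.0 CPM in DG-like nuclei of mouse 20 (18.7 to 20.1). Rheb was at 48.2 CPM in CA3-like nuclei of fAD-Isoflurane mouse 20 (58.1 to 59.3). Chp1 was at 82.2 CPM in astrocyte-like nuclei of WT-Awake mouse 1 (60.3 to 65.1) and at 81.3 CPM in OPC-like nuclei of fAD-Isoflurane mouse 4 (53.8 to 57.4).

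The difference from awake mice was lower in neuronal than in glial classes in 7 of 10 comparisons at an unadjusted p under 0.05 by the exact permutation test (10.9% of all genes for ketamine and 11.7% for isoflurane), and in 3 of them with p adjusted over all genes, set up after the values by class had been seen. On the log2(CPM + 1) scale the neuronal minus glial difference for ketamine was -1.34 for Hsd17b12, -0.64 for Chp1 and -0.35 for 1700025G04Rik. For isoflurane it was -0.89 for Hsd17b12, -0.42 for Chp1, -0.38 for Rheb and -0.31 for 1700025G04Rik. Awake mouse 29 was at -0.58 for Chp1, with 2 of 4 ketamine and 3 of 7 isoflurane mice below it, and at -0.85 for Rheb, with 2 of 7 isoflurane mice below it.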

How the results depend on the processing

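Each mouse number occurs in 1 group only, so replicate numbers pair no mice. Tissue was handled in sets by the study's methods, but the labels name no set, and runs of mouse numbers stand in for them. Mice 1 to 4 and mice 17 to 20 each hold 1 mouse of the 4 awake and isoflurane groups, but the run term places mouse 17 with mice 14 to 16. The ketamine and awake mice share 1 run of numbers through mouse 29 alone, and the causes of the changes were not tested. Genes called lower in CA1-like nuclei under ketamine numbered 704, 189 with each nucleus gated by itself and 34 with the run term. The median log2 difference of the 5 genes, -1.17, was -1.26 with library-size scaling, -0.999 with the gate, -0.94 with doublets kept, -1.03 with the run term and -0.99 against mouse 29. Of the 5 genes, 1 was called under isoflurane, 0 without a filter, with library-size scaling, with the gate, without mice 1 to 4 or without mice 10 to 12 (chosen after seeing the data), and 2 with the run term. In mice 1 to 4 and 17 to 20 alone, with these 2 sets as a term (added after seeing the data), it was 0. The 9 calls in other classes were 0 with the run term and 5 without mice 10 to 12, and the 11 list genes called were 1 with the gate and 0 with the run term. Leaving out 1 mouse gave 161 (mouse 27) to 834 genes, medians of -1.23 to -1.08, 0 to 1 isoflurane calls, 0 to 0 genotype calls, 4 (mouse 25 or 27) to 10 calls in other classes and 4 (mouse 27) to 13 list genes. Where this left 1 ketamine mouse in a group, it was assumed to vary like the other groups.

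Signs turned in these cases. For fAD against WT they were -0.34 for Hsd17b12, -0.17 for 1700025G04Rik and 0.0023 for Rheb with the gate, -0.014 for 1700025G04Rik with library-size scaling and -0.0080 without mice 10 to 12, -0.098 in the 8 mice 1 to 4 and 17 to 20 (where Chp1 was 0.11 and Lims1 0.040), and for Chp1 7.1e-05 without a filter, 0.0097 with doublets and 0.0082 without mice 1 to 4. With the run term, Hsd17b12 in CA3-like nuclei was 0.34, Rheb in subicular and cortical-like nuclei 0.29, Eif4ebp2 0.047, Tecr 0.13 and Ppp3ca -0.055. With the gate, Mtor was -0.054, Hacd2 0.092 and Ppp3ca -0.15, and without mice 1 to 4 Hacd2 was 0.0100 and Ppp3ca -0.057. With library-size scaling Ppp3ca was -0.037 and Itgb1 -0.089, with doublets kept -0.032 and -0.040, and Itgb1 was -0.035 without a filter, while Parva was 0.069 without mice 10 to 12. Lims1 in neurons minus glia under isoflurane was 0.065 with library-size scaling, 0.068 with the gate and 0.013 without mice 10 to 12. Leaving out 1 mouse, fAD against WT ran from -0.049 to 0.10 for 1700025G04Rik, -0.065 to 0.0089 for Rheb, -0.11 to 0.100 for Chp1 and -0.069 to 0.0016 for Lims1, Ppp3ca from -0.025 to 0.083, Parva from -0.63 to 0.29, Itgb1 from -0.095 to 0.079, and Lims1 in neurons minus glia from -0.068 to 0.015 for ketamine and -0.061 to 0.034 for isoflurane. It also moved the log2 difference by over 1.5 times without a turn of sign for Lims2 (-1.51 to -0.26), Eif4ebp2 (-1.01 to -0.40), Tecr (-0.66 to -0.31), Gpat4 (-0.46 to -0.13), Ilk (-0.41 to -0.068), Hacd2 (-0.15 to -0.048), Hacd3 (0.070 to 0.31), Mtor (0.038 to 0.20), Rptor (0.052 to 0.23), Tsc2 (0.15 to 0.38), Ppp3r1 (0.16 to 0.36) and Hsd17b12 in fAD against WT (0.11 to 0.35), none of them called. Of 559 alternatives for 66 single values, 455 kept direction and side of the threshold or moved by less than the spread between mice. Many of these values were not called, and staying so counted as kept. Among called values, the losses ran from 0 of 9 alternatives (Hsd17b12 under isoflurane in GABA-like and in subicular and cortical-like nuclei) to 7 of 9 (Castor2). In ketamine mice Hsd17b12 rests on 4 to 12 UMIs each in CA1-like nuclei and 2 to 10 in CA3-like nuclei. It rests on 7 to 11 UMIs in subicular and cortical-like, 10 to 23 in GABA-like and 10 to 27 in DG-like nuclei.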
